A study of Mus musculus with 6 samples.

Results

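Kruppel-like factors are transcription factors with zinc fingers at the carboxyl end that bind CACCC and GC-rich sequences, and 10 genes of the family are described here: Klf2, Klf3, Klf4, Klf5, Klf6, Klf7, Klf9, Klf10, Klf13 and Klf15. They were chosen by name from the 25683 genes of the deposited table, and each had reads in every library. RNA was sequenced from cultured mouse aortic cells, which the labels call vascular smooth muscle cells of a primary line, and which either lacked Nt5e (knock-out, libraries 1, 2 and 3) or were wild type (libraries 4, 5 and 6), and values are given in that order throughout. The cells of all 6 libraries had been moved from 10% serum to a differentiation medium with 0.5% serum for 48 h, and polyadenylated RNA was sequenced. Nt5e encodes CD73, the surface enzyme that makes adenosine from AMP, and the series title places the study in adenosine and TGF-beta signalling. The labels give neither the way the gene was disrupted, nor the strain or age of the mice, nor whether libraries of a genotype came from separate animals or cultures. What the p-values below measure is therefore the spread among these 6 samples, and part of it may be technical.

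In smooth muscle cells Klf4 is known for repressing contractile genes when cells leave the contractile state, and Klf5 for accompanying growth after vessel injury. Klf15 is known as a factor of the quiescent state and of amino acid metabolism, and Klf2 is best known from endothelium, where fluid flow induces it through the kinase ERK5 and MEF2 factors. The family divides by cofactor into activators that recruit acetyltransferases, repressors that recruit CtBP and repressors that recruit Sin3A.

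The libraries held between 19919095 and 23669252 exon reads, and every exon read of the 10 genes was a unique one. Nt5e itself had 22, 1 and 2 exon reads in the knock-out against 615, 688 and 486 exon reads in the wild type. Knock-out libraries 2 and 3 were nearly identical, with a biological coefficient of variation of 3.66% between them, as were wild-type libraries 4 and 6 (3.49%). Wild-type library 5 lay 14.9% and 15.7% from wild-type libraries 4 and 6. Knock-out library 1 stood apart from the other 2 knock-out libraries (44.1% and 44.6%) by as much as from the wild type (43.4% to 47.5%). Each result is therefore also given without library 1 where that matters, and after each nearly identical pair was added up to 1 sample, which leaves 2 samples per genotype. With the pairs summed, 17 of 13041 genes passed the test (0.13%), and none of the 10 Kruppel-like genes did by edgeR's adjusted p, while at an unadjusted p under 0.05 4 of them were higher and 1 was lower. The share of all tested genes at an unadjusted p under 0.05 was not counted, so such counts, here and below, have no background to read against.

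The upstream sequences of the 5 genes whose exon reads passed the test are shown first, so that the starts of these genes can be compared. Each window runs from 250 to 31 bases before the start that RefSeq gives on GRCm38.p6, and is printed 5′ to 3′ on the gene's own strand. Capitals mark TGACG or its reverse CGTCA, the core of the cAMP response element, and the consensus site of MEF2. The windows are Klf2 at chr8:72318812-72319031 (plus strand), Klf4 at chr4:55532506-55532725 (minus), Klf6 at chr13:5861239-5861458 (plus), Klf9 at chr19:23140976-23141195 (plus) and Klf13 at chr7:63938946-63939165 (minus).
Klf2: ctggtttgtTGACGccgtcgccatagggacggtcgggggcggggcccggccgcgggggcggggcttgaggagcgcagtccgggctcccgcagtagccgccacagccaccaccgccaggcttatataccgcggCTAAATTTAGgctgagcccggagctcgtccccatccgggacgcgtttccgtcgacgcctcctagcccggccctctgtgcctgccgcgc
Klf4: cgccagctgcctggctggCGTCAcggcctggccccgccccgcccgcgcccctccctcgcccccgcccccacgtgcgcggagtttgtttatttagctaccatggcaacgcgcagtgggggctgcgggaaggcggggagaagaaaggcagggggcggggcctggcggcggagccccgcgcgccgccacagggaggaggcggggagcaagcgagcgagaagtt
Klf6: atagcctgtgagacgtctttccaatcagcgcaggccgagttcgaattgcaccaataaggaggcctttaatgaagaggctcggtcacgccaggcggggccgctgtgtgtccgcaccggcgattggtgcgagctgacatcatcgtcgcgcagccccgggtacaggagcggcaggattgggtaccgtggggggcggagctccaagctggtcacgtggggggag
Klf9: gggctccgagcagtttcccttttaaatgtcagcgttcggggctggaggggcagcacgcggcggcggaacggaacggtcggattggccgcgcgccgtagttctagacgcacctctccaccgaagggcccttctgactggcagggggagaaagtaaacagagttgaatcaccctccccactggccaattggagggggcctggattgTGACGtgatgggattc
Klf13: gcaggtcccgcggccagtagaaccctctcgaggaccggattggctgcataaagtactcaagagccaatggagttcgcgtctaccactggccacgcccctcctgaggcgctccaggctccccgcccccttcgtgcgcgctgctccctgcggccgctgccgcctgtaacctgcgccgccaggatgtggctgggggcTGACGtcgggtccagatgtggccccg

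RefSeq entries were matched for 8 of the 10 genes, all but Klf5 and Klf10, and their windows were rich in G and C (60.0% to 79.1%, against a median of 51.8% over 32851 promoters). The core TGACG was found on either strand in 5 of the 8, against 14.8% of all promoters over the same window. It lay 241 bases before the start in Klf2, 232 in Klf4, 46 in Klf9, 56 in Klf13 and 78 in Klf15, so 4 of the 5 printed windows hold it and that of Klf6 does not. The full palindrome TGACGTCA, which contains the core and stands in 1.14% of promoters, was in none of the 8. The MEF2 site, present in 2.60% of promoters, was found only in Klf2, 118 bases before the start. GGGCGG, the GC box, was in 7 of the 8 windows against 28.5% of promoters, and CACCC in 4 against 47.8%. The windows of Klf3 and Klf7 are not wholly upstream of the deposited gene, and annotated exons cover 220 and 72 of their 220 bases. Both windows hold a GC box and CACCC, and they have the highest (Klf3) and lowest (Klf7) share of G and C. CCAAT was in 4 of the 8 against 31.01%, with 4 matches in Klf6, 3 in Klf9 and 2 in Klf13, and the CArG box of SRF was in none (1.30% of promoters). TGANTCA, the AP-1 site, was in 1, that of Klf9, against 6.12%. All motifs were searched on both strands. The promoters compared were not matched for G and C content, and no difference in these shares was tested. A match is a run of letters and does not show that a factor binds there.

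Among the 10 genes, exon reads of Klf4, Klf6, Klf9 and Klf13 were higher in the knock-out and those of Klf2 were lower (quasi-likelihood test of edgeR, p adjusted by Benjamini-Hochberg over 12660 tested genes, threshold 0.05). Over all tested genes, 27.8% passed this test, 14.1% as higher and 13.7% as lower. With so large a background, 5 calls among 10 genes mark nothing particular to the family. The median log2 fold change (knock-out over wild type) of the 10 genes was 0.59, with 8 of them above 0, and that of all tested genes was 0.02. The genotypes did not overlap for the same 5 genes, 4 with the knock-out above and 1 below, where 24.3% and 25.5% of tested genes did so. Leaving out single libraries changed the number of higher genes. It was 3 without knock-out library 2, knock-out library 3 or wild-type library 5. Over all tested genes, 1606 of 12841, 1642 of 12872 and 1671 of 12824 passed in these fits, 48.5% to 49.3% of them as higher. The number of higher members was 0 without wild-type library 4 or 6. There 1120 of 12858 and 1386 of 12870 genes passed, 45.8% and 47.0% of them as higher. Without either of these wild-type libraries the number of higher members was 4 at an unadjusted p under 0.05, for which no share of all genes was counted. Without knock-out library 1 it was 6, where 32.6% of all tested genes were higher and 33.7% lower. Klf2 was lower in each of these fits, and without knock-out library 1 Klf5 and Klf15 were lower too. In bulk RNA, fewer cells of a kind and less RNA per cell cannot be told apart for any of these values.

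**Figure D1:**
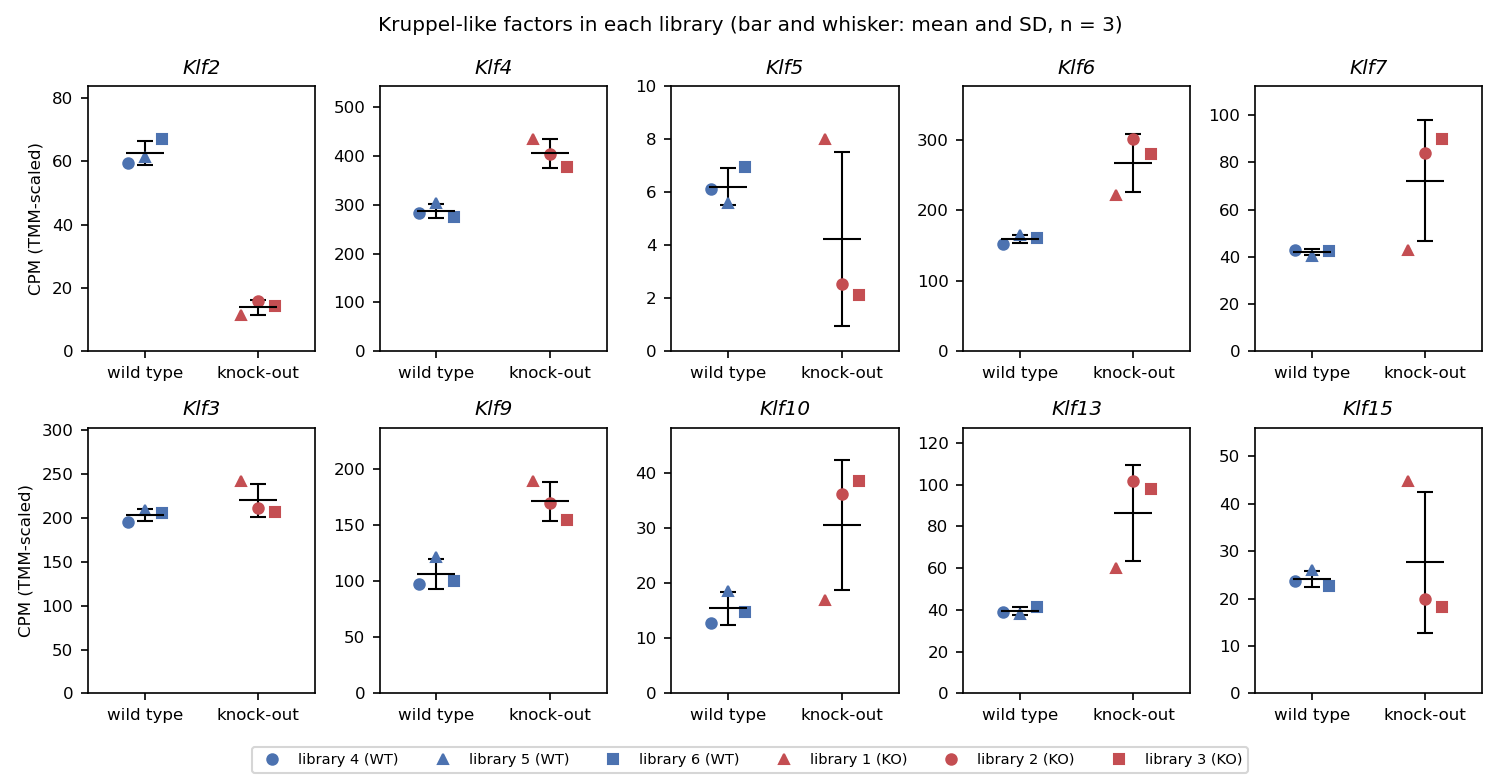
Level of each of the 10 genes in CPM (reads scaled to the adjusted library size, vertical axes from 0, scaled per gene) in wild-type and knock-out libraries. Points are libraries, bars and whiskers the mean and SD (n = 3), and the panel of Klf2 shows all knock-out libraries between 11.4 and 15.9 against 59.5 to 67.0 in the wild type.

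Klf2 (ENSMUSG00000055148, chromosome 8, 72319033 to 72321656, plus strand, GRCm38) had the largest difference of the 10 genes. Its level was 11.4, 15.9 and 14.3 CPM (reads scaled to the TMM-adjusted library size) in the knock-out against 59.5, 61.3 and 67.0 in the wild type. The 3 knock-out libraries lay close together, library 1 included, and far below the lowest wild-type library. The means were 13.9 ± 2.28 and 62.6 ± 3.91 CPM (SD, n = 3 each), a level 4.51-fold lower in the knock-out. The log2 fold change was -2.17 ± 0.14 (SE; edgeR adjusted p = 0.000749), and leaving out any single library kept it between -2.28 and -2.05, with an adjusted p of at most 0.00892. Summing the nearly identical pairs ended the call at an almost equal size (-2.22, edgeR adjusted p = 0.0617). Reads across exon junctions of Klf2 numbered 62, 67 and 44 in the knock-out against 228, 276 and 310 in the wild type, which is 19.9% and 19.1% of its exon reads.

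Klf4 (ENSMUSG00000003032, chromosome 4, 55527143 to 55532466, minus strand) was the most abundant of the 10 genes per exon length in either genotype. It measured 434, 403 and 376 CPM in the knock-out against 282, 303 and 275 in the wild type. Every knock-out library was above every wild-type library, library 1 being the highest. Klf4 rose 1.41-fold, from 287 ± 14.7 to 404 ± 28.8 CPM (SD, n = 3 each), a difference of 0.50 ± 0.09 on the log2 scale (SE; edgeR adjusted p = 0.0121). The call ended without knock-out library 2 (adjusted p = 0.0503), wild-type library 4 (0.0712) or wild-type library 6 (0.0652) and with pairs summed (0.197), while the fold change stayed between 0.44 and 0.55 without any single library. The share of junction reads was 20.7% in the knock-out and 21.6% in the wild type.

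Klf5 (ENSMUSG00000005148, chromosome 14, 99298691 to 99315036, plus strand) was the least abundant of the 10 per exon length, with 185, 54 and 40 exon reads in the knock-out against 137, 136 and 150 in the wild type. Library 1 was above the wild type and libraries 2 and 3 were below it, so the genotypes overlapped. In CPM, library 1 (8.01) was 3.43 times the mean of libraries 2 and 3 (2.55 and 2.13). No difference passed with all libraries (log2 fold change -0.55 ± 0.53, edgeR adjusted p = 0.465), while without library 1 Klf5 was lower, at -1.41 ± 0.19 (edgeR adjusted p = 0.000721). Tested genes of chromosome 14 had a median 0.38 above that of all genes on the log2 scale, and after rescaling by chromosome the value of Klf5 was -0.93 (adjusted p = 0.237).

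Klf6 (ENSMUSG00000000078, chromosome 13, 5861482 to 5870394, plus strand), an activator known as an early gene of injury and of TGF-beta responses, measured 221, 301 and 280 CPM in the knock-out. The wild-type libraries measured 153, 165 and 161 CPM. All knock-out libraries were above the wild type, with library 1 the nearest to it. Klf6 rose 1.68-fold, from 159 ± 6.20 to 267 ± 41.3 CPM (SD, n = 3 each), a difference of 0.75 ± 0.13 on the log2 scale (edgeR adjusted p = 0.0109). The call ended without wild-type library 4 (adjusted p = 0.0626) or 6 (0.0545) and with pairs summed (0.188), and the fold change over single libraries left out was 0.65 to 0.86.

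Klf7 (ENSMUSG00000025959, chromosome 1, 64029447 to 64122282, minus strand), an activator studied mainly in neurons and fat cells, measured 42.9, 84.2 and 89.9 CPM in the knock-out. In the wild type it measured 43.0, 40.6 and 42.5 CPM. Library 1 stood within the wild-type range, whereas libraries 2 and 3 had 2.03 times its level. Its log2 fold change, 0.78 ± 0.28, did not pass (edgeR adjusted p = 0.0836). Without knock-out library 1 it was 1.04 and passed (edgeR adjusted p = 1.12e-05), and it also passed with libraries of the same title stem summed (0.82, adjusted p = 0.0418) and with DESeq2 (adjusted p = 0.0281), under which 36.8% of tested genes passed, 18.7% as higher.

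**Figure D2:**
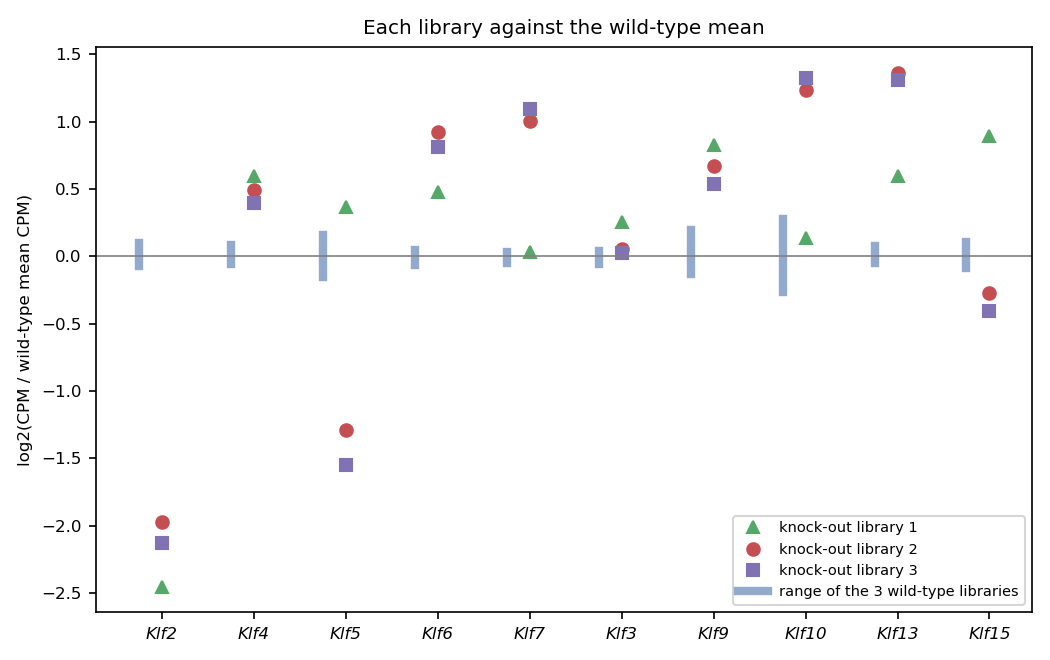
Level of each gene as log2 of CPM over the wild-type mean CPM (vertical axis), with the knock-out libraries as separate points and the range of the 3 wild-type libraries as a bar. Knock-out library 1 lies apart from libraries 2 and 3 for Klf5, Klf7, Klf10 and Klf15, and all 3 lie between -2.45 and -1.97 for Klf2.

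Klf3 (ENSMUSG00000029178, chromosome 5, 64803388 to 64832901, plus strand), the member that recruits the corepressor CtBP, showed no difference in exon reads that passed. It measured 242, 211 and 207 CPM in the knock-out against 196, 209 and 205 in the wild type. Only library 1 was above the rest, and libraries 2 and 3 lay within or just above the wild-type range. In exons the fold change was 0.11 ± 0.09 on the log2 scale (edgeR adjusted p = 0.363), and it was 0.03 without library 1.

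Klf9, Klf10 and Klf13 belong to the members that recruit Sin3A. Klf9 (ENSMUSG00000033863, chromosome 19, 23141226 to 23168134, plus strand), a target of glucocorticoid and thyroid hormone receptors, measured 189, 169 and 155 CPM in the knock-out against 97.5, 122 and 101 in the wild type. All knock-out libraries were above all wild-type libraries. Klf9 rose 1.61-fold, from 107 ± 13.2 to 171 ± 17.4 CPM (SD, n = 3 each), a difference of 0.68 ± 0.12 on the log2 scale (edgeR adjusted p = 0.0127). Its call ended without wild-type library 4 (0.0656) or 6 (0.0626) and with pairs summed (0.171, adjusted p in each case).

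Klf13 (ENSMUSG00000052040, chromosome 7, 63886351 to 63938915, minus strand), known from lymphocytes and heart, measured 59.9, 102 and 97.8 CPM in the knock-out against 38.9, 38.2 and 41.6 in the wild type. The genotypes did not overlap, with library 1 between the other knock-out libraries and the wild type. Klf13 rose 2.19-fold, the largest rise of the 10, from 39.5 ± 1.82 to 86.5 ± 23.1 CPM (SD, n = 3 each). The log2 fold change was 1.13 ± 0.21 (edgeR adjusted p = 0.0137), and 1.00 to 1.33 with single libraries left out. The adjusted p exceeded the threshold without knock-out library 3 (0.0501) or wild-type library 4 (0.0682), 5 (0.0607) or 6 (0.0584) and with pairs summed (0.187).

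Klf10 (ENSMUSG00000037465, chromosome 15, 38291463 to 38300706, minus strand), known as an early gene of TGF-beta, measured 16.97, 36.2 and 38.5 CPM in the knock-out. The wild type measured 12.8, 18.6 and 14.8 CPM. Library 1 lay within the wild-type range and libraries 2 and 3 had 2.20 times its level. The log2 fold change of 0.99 ± 0.33 did not pass (edgeR adjusted p = 0.0759), but passed without library 1 (1.27, adjusted p = 0.000445), with DESeq2 (adjusted p = 0.0220) and with libraries of the same title stem summed (1.09, adjusted p = 0.0400). Genes of chromosome 15 had a median 0.21 above that of all tested genes on the log2 scale.

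Klf15 (ENSMUSG00000030087, chromosome 6, 90462576 to 90475238, plus strand) measured 44.8, 20.0 and 18.2 CPM in the knock-out against 23.6, 26.0 and 22.7 in the wild type. Library 1 was the highest of all 6, at 2.35 times the mean of libraries 2 and 3, which were below every wild-type library. With all libraries the log2 fold change was 0.20 ± 0.36 (edgeR adjusted p = 0.702), and without library 1 it turned to -0.34 ± 0.09 and passed as lower (edgeR adjusted p = 0.0154).

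**Figure D3:**
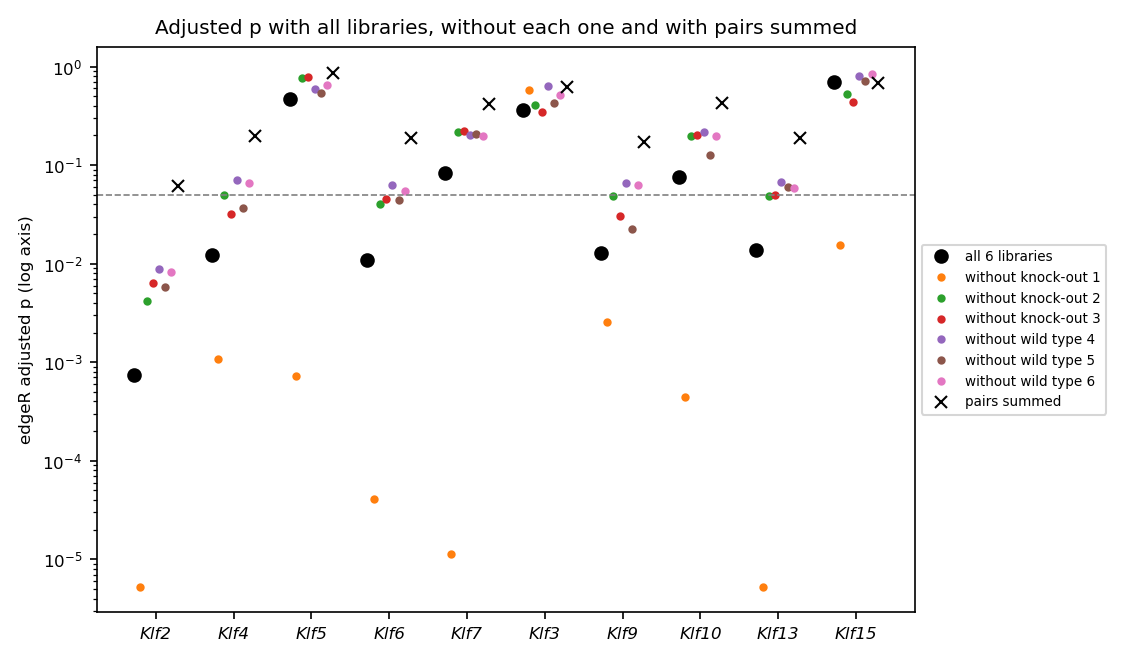
edgeR adjusted p (log axis) of each gene with all libraries, without each library in turn and with the nearly identical pairs summed, with the threshold of 0.05 as a dashed line. Klf2 lies under the line in every fit with single libraries left out and above it only with pairs summed, and Klf4, Klf6, Klf9 and Klf13 cross it in 2 to 4 of those fits.

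Per exon length, on the scale of the deposited RPKM, the order of the wild-type levels was Klf4 (89.7 ± 4.00), Klf3 (35.5 ± 1.06), Klf6 (35.4 ± 1.21), Klf2 (32.3 ± 2.11), Klf9 (22.7 ± 2.64), Klf15 (8.24 ± 0.521), Klf13 (5.66 ± 0.289), Klf7 (4.93 ± 0.183), Klf10 (3.52 ± 0.648) and Klf5 (1.14 ± 0.132; mean ± SD, n = 3). Klf3, Klf6 and Klf2 were not separated beyond their spread. In the knock-out the order was Klf4 (119.98 ± 13.97), Klf6 (56.0 ± 6.34), Klf3 (36.4 ± 4.95), Klf9 (34.5 ± 5.10), Klf13 (11.6 ± 2.66), Klf15 (9.10 ± 5.36), Klf7 (7.94 ± 2.54), Klf2 (6.76 ± 0.842), Klf10 (6.52 ± 2.31) and Klf5 (0.752 ± 0.620). Klf3 and Klf9 were not separated beyond their spread there, and neither were the genes from Klf13 to Klf10 from their neighbours. Among the 10 genes Klf2 ranked 4 in each wild-type library and 7, 8 and 8 in the knock-out libraries, where its neighbours were not separated from it. In the wild type its RPKM exceeded that of 85.3% of tested genes, and in the knock-out that of 46.4%.

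The summed RPKM of the 10 genes was 307, 289 and 273 in the knock-out against 231, 248 and 238 in the wild type. Klf4 held 41.3 ± 2.42% of the sum in the knock-out and 37.5 ± 1.07% in the wild type (SD, n = 3). Klf2 held 2.34 ± 0.374% and 13.5 ± 0.985%, and Klf6 19.4 ± 2.97% and 14.8 ± 0.219% (SD, n = 3). The ratio of Klf4 to Klf2 RPKM was 23.0, 15.3 and 15.9 in the knock-out libraries against 2.87, 2.99 and 2.48 in the wild type, with library 1 the highest. These sums, shares and ratios were not tested.

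**Figure D4:**
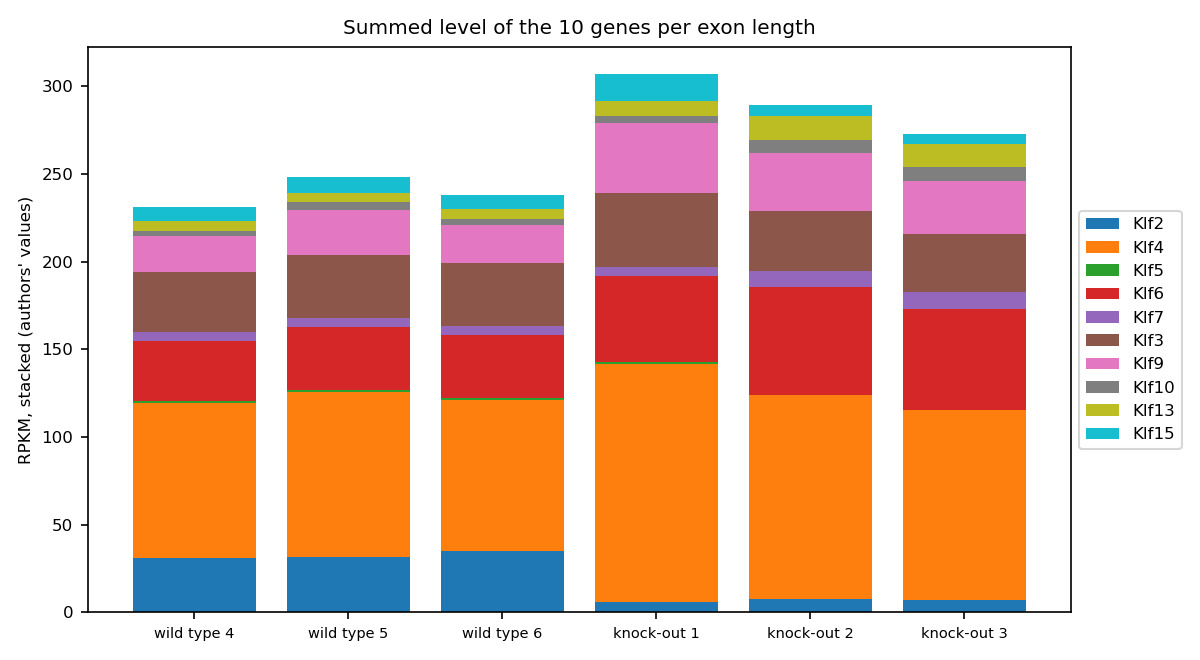
Deposited RPKM of the 10 genes stacked per library (vertical axis), wild-type and knock-out libraries side by side. The band of Klf2 is a mean of 13.5% of the bar in the wild type and 2.34% in the knock-out, while the knock-out bars are the taller, at 273 to 307 against 231 to 248.

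Intron reads are a second readout of the same libraries, scaled to the 963039 to 1214127 intron reads per library. They were tested for 8 of the 10 genes, Klf5 and Klf10 having too few. Of all genes tested on introns 12% passed, 4.98% as higher and 7.03% as lower, and of the Kruppel-like genes Klf4 was higher and Klf3 lower. Klf4 had 122, 127 and 111 intron reads in the knock-out against 73, 65 and 59 in the wild type, with no overlap. Its log2 fold change in introns was 0.87 ± 0.16 (edgeR adjusted p = 0.0112), against 0.50 in exons, and the call ended without wild-type library 5 (adjusted p = 0.0555) or 6 (0.0591). The difference between the exon and the intron value was not tested for this or any other gene.

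For Klf3, introns held 80, 84 and 97 reads in the knock-out against 130, 172 and 144 in the wild type, and the groups did not overlap. The log2 fold change was -0.77 ± 0.16 (edgeR adjusted p = 0.0165), beside 0.11 in exon reads. Library factors taken from exon reads raised the median of all intron-tested genes from 0.01 to 0.13 and ended the call (-0.64, adjusted p = 0.0948), as did leaving out knock-out library 2 (0.0780) or wild-type library 4 (0.0503), 5 (0.0797) or 6 (0.0691). A further gene, C230096K16Rik, lies within the first part of Klf3 on the same strand, and the deposited table lists it at 0 exon reads in every library.

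Klf2 had few intron reads, 3, 18 and 8 in the knock-out against 20, 28 and 28 in the wild type, again without overlap. The log2 fold change of -1.40 ± 0.48 did not pass (edgeR adjusted p = 0.0991), and without knock-out library 2 it was -2.12 and passed (adjusted p = 0.0450). For Klf6 (0.64 ± 0.25, adjusted p = 0.142) and Klf9 (0.59 ± 0.27, adjusted p = 0.207) the intron values were close to their exon values but did not pass with all libraries, and passed once knock-out library 1 was left out (edgeR adjusted p = 0.0338 and 0.0199), where 15.1% of intron-tested genes were higher and 17.4% lower. Klf13, which rose in exon reads, had an intron value of 0.00 ± 0.35 on 11 to 18 intron reads per library. Klf7 (0.16 ± 0.30) and Klf15 (0.14 ± 0.29) did not pass either. Klf15 stood out in its intron share, 17.3% of its exon and intron reads in the knock-out and 17.5% in the wild type, where no other of the 10 genes exceeded 3.22%.

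**Figure D5:**
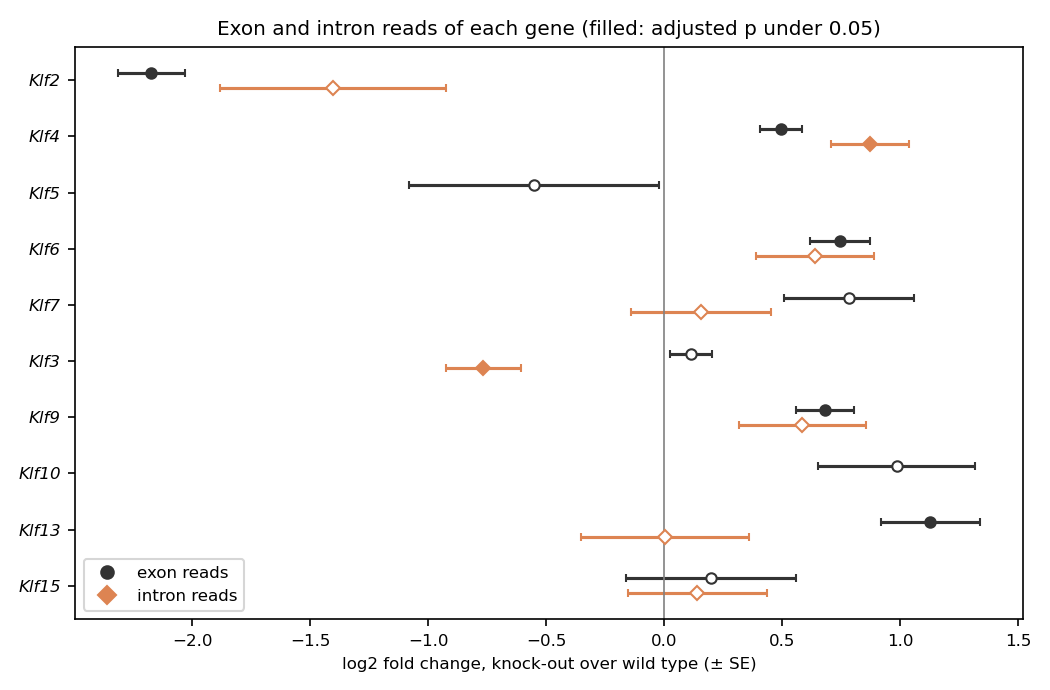
Log2 fold change (knock-out over wild type, horizontal axis, ± SE) of each gene in exon reads and, where tested, in intron reads, filled where the adjusted p was under 0.05. Klf3 is at 0.11 in exon reads and at -0.77 in intron reads, and Klf13 at 1.13 and 0.00.

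The 16 other Kruppel-like and Sp genes, which share the DNA-binding fingers, gave 8 tested genes, of which 2 were higher, none was lower (1 at an unadjusted p under 0.05, and none with DESeq2) and the median log2 fold change was 0.16. Klf12, a repressor that recruits CtBP as Klf3 does, had 34, 349 and 364 exon reads in the knock-out against 14, 14 and 6 in the wild type. Every knock-out library was above the wild type, and libraries 2 and 3 had 12.2 times the CPM of library 1. The knock-out reads carried Klf12 past the filter on low values, its wild-type mean being 0.49 CPM. Its place among the 2 higher genes of this group therefore says little. Its log2 fold change was 4.63 ± 1.02 (edgeR adjusted p = 0.0229), and its call ended on leaving out any library other than knock-out library 1 (adjusted p up to 0.0929). It also ended with the title number after p as a covariate (3.43, adjusted p = 0.0960), with limma-voom (3.87, adjusted p = 0.237) and with pairs summed (0.218). Sp1, the widely expressed GC-box factor, was higher by 0.56 ± 0.15 on the log2 scale (edgeR adjusted p = 0.0390), a call that ended in the same 5 fits (up to 0.131), with the number after p as a covariate (0.0536), with chromosome rescaling (0.36, adjusted p = 0.0967) and with pairs summed (0.311). Without library 1, 7 of 11 tested genes of this group were higher and 2 lower, where 32.6% and 33.7% of all tested genes were. Over the other 5 fits none of the group was higher and 0 or 1 lower, where 1120 to 1671 of all tested genes passed.

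Several other genes of the family had few reads. Klf8, another CtBP-binding repressor, had 4, 23 and 28 exon reads in the knock-out against 3, 5 and 3 in the wild type and was too low to test with all libraries. Sp8 had 0, 45 and 66 reads in the knock-out against 0 in every wild-type library, and Sp5 had 57, 7 and 80 reads in the wild type and 0 in the knock-out, at least 44.3-fold lower against a floor of 3 reads over the 3 knock-out libraries. Klf14 had no read in any library, and Klf1, the factor of red cells, had 9 in the knock-out and 14 in the wild type. Klf11 (-0.02 ± 0.26) and Klf16 (0.08 ± 0.13) did not pass, and the sign of each flipped under some alternatives. Sp2 (0.24 ± 0.08), Sp3 (0.28 ± 0.15), Sp4 (-0.51 ± 0.20) and Sp6 (-0.94 ± 0.60) did not pass with the main test, though Sp4 passed as lower with either title number as a covariate (edgeR adjusted p = 0.0379 and 0.0400) and Sp2 as higher with chromosome rescaling (0.43, adjusted p = 0.0146). Klf17, Sp7 and Sp9 were too low to test.

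Genes of the pathways that act on or below these factors were taken from lists. Each count below with all libraries reads against 14.1% of tested genes higher, 13.7% lower and a median of 0.02. Counts below without library 1 read against 32.6% higher and 33.7% lower. With any other single library left out, 1120 to 1671 genes passed, against 3524 with all libraries. With the nearly identical pairs summed, no gene of these pathway lists passed. In the SRF and myocardin list of contractile genes, which Klf4 is known to repress, 3 of 13 tested genes rose and 1 fell, with a median log2 fold change of 0.48. Vcl, which links actin to adhesions, rose by 1.02 ± 0.10 (edgeR adjusted p = 0.00225), Srf, the factor itself, by 0.91 ± 0.16 (0.0123) and Smtn by 0.55 ± 0.13 (0.0296). Cnn1, a calponin of mature smooth muscle, fell by 2.45 on the log2 scale (SE 0.55, adjusted p = 0.0246) from a wild-type level of 2.07 CPM. It totalled only 24 exon reads among knock-out libraries, a mean of 0.37 CPM, against 139 among wild-type libraries. Its wild-type reads carried it past the filter on low values, so the 1 fall counted for this list says little. Acta2, smooth muscle actin, did not pass with the main test (2.36 ± 0.75, edgeR adjusted p = 0.0633). It passed with DESeq2 (adjusted p = 0.00128), without library 1 (2.85, adjusted p = 0.000115), with title stems summed (0.0130) and with the last title number as a covariate (0.0378), and was 1.35 with the number after p as a covariate (adjusted p = 0.136). The call of Srf ended without wild-type library 4 or 6 (adjusted p up to 0.0652), that of Cnn1 without knock-out libraries 2 and 3 and wild-type libraries 4 and 6, each left out alone (up to 0.0879), and that of Smtn without any library other than knock-out library 1 (up to 0.119). Without library 1, 10 of 14 tested genes of the list were higher and 1 lower, and over the other 5 fits with a library left out 1 or 2 were higher and 0 or 1 lower.

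In the arm from MEK5 and ERK5 to MEF2, the known route to Klf2 and Klf4 in endothelium, 3 of 9 genes rose and 1 fell, with a median of 0.33. Mef2a rose by 0.67 ± 0.07 (edgeR adjusted p = 0.00260), and Mef2c, from 7.92 ± 2.62 to 29.2 ± 8.66 CPM, by 1.88 ± 0.31 on the log2 scale (adjusted p = 0.00994), a call that ended without wild-type library 4 (0.0538). The MEF2-binding deacetylases moved in opposite directions, Hdac7 up by 0.44 ± 0.09 (adjusted p = 0.0199) and Hdac5 down at -0.38 ± 0.09 (0.0271), and both calls ended without any library other than knock-out library 1 (up to 0.0936 and 0.0988). Both also ended with chromosome rescaling, at 0.25 (edgeR adjusted p = 0.0678) for Hdac7 and -0.19 (0.146) for Hdac5. Without library 1, 7 of the 9 were higher and 1 lower, and over the other 5 fits 1 or 2 were higher and none lower.

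In the glucocorticoid list, which holds the receptor gene and genes of the response, 2 of 11 tested genes rose and 2 fell, with a median of -0.42. The receptor gene Nr3c1 rose by 0.76 ± 0.17 (edgeR adjusted p = 0.0254) and the phosphatase gene Dusp1 by 0.77 ± 0.18 (0.0281). Cebpd fell by 1.30 (log2 scale, SE 0.23, adjusted p = 0.0117) and Hsd11b1, whose enzyme reactivates glucocorticoid, by 1.52 (SE 0.28, adjusted p = 0.0141). The call of Nr3c1 ended without any library other than knock-out library 1 (up to 0.0939), and that of Dusp1 when knock-out library 2 or a wild-type library was left out (up to 0.109). The Dusp1 call also ended with total counts (0.68, edgeR adjusted p = 0.0600). Cebpd was lost without knock-out library 2 or wild-type library 4 (up to 0.0572), and Hsd11b1 without those or wild-type library 5 (up to 0.0663). Without library 1, 2 were higher and 5 lower, and over the other 5 fits 0 or 1 were higher and 0 to 2 lower.

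In the TGF-beta arm, the known inducer of Klf10 and Klf6, 2 of 12 genes rose and none fell (2 at an unadjusted p under 0.05, and 1 with DESeq2), with a median of 0.36, and 7 were higher and 4 lower without library 1. Smad7, the feedback inhibitor, rose by 1.33 ± 0.10 (edgeR adjusted p = 0.00130), and Ccn2, a matrix gene that Klf15 is known to repress, rose by 2.17 ± 0.31 (edgeR adjusted p = 0.00665). Both calls held with any single library left out and ended with pairs summed. Of the 15 clock genes, 3 rose and 1 fell, with a median of -0.00. Bhlhe41 rose by 3.70 ± 0.49 (edgeR adjusted p = 0.00557) and Tef by 0.43 ± 0.08 (0.0132), while Hlf fell by 4.02 on the log2 scale (SE 0.73, adjusted p = 0.0132). Hlf totalled only 23 exon reads among knock-out libraries, a mean of 0.34 CPM, against 395 among wild-type libraries (5.76 CPM). Its wild-type reads carried it past the filter on low values, so the 1 fall counted for this list says little. The calls of Tef (up to 0.0658) and Hlf (up to 0.0583) ended without wild-type library 4, 5 or 6 or knock-out library 2, and that of Tef also without knock-out library 3. Without library 1, 5 clock genes were higher and 5 lower, and over the other 5 fits 1 or 2 were higher and 0 or 1 lower.

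Among 11 ubiquitin ligase and cofactor genes of the family, 2 rose and none fell (none at an unadjusted p under 0.05 or with DESeq2), with a median of 0.26. Wwp1, a ligase known to act on Klf2 and Klf5, rose by 0.71 ± 0.11 (edgeR adjusted p = 0.00835, ended without wild-type library 4 at 0.0516), and the acetyltransferase gene Ep300 by 0.44 ± 0.11 (adjusted p = 0.0346, ended without any library other than knock-out library 1, up to 0.121). The Ep300 call also ended with chromosome rescaling (0.24, edgeR adjusted p = 0.118) and with the title number after p as a covariate (0.37, adjusted p = 0.0530). Without library 1, 7 were higher and none lower, and over the other 5 fits 0 or 1 were higher and none lower. Of 11 tested genes described elsewhere as targets of these factors, 3 rose and 1 fell, with a median of -0.36. Cdkn1a, a cell cycle inhibitor that Klf4 and Klf6 are known to activate, rose by 0.91 ± 0.07 (edgeR adjusted p = 0.00144), Pdgfa, a growth factor gene known as a Klf5 target, by 0.95 ± 0.08 (0.00180), and Bcat2, an amino acid enzyme gene known as a Klf15 target, fell by 0.69 (log2 scale, SE 0.10, adjusted p = 0.00704). These 3 calls held without any single library and ended with pairs summed (edgeR adjusted p = 0.101, 0.0945 and 0.155). Thbd, thrombomodulin, a known Klf2 target of endothelium, had a wild-type level of 312 ± 9.63 CPM and a value of -0.89 ± 0.35 that did not pass with the main test (edgeR adjusted p = 0.110). It passed as lower without library 1 (-1.43, adjusted p = 3.71e-06), with DESeq2 (0.0329) and with the last title number as a covariate (0.0344). Without library 1, 3 targets were higher and 6 lower.

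The immediate early genes, which serum and stress induce together with Klf4, Klf6 and Klf10, gave 6 of 14 higher and 1 lower, with a median of 0.30. Egr2 rose by 2.39 ± 0.34 (edgeR adjusted p = 0.00672) and Ier2 by 0.66 ± 0.07 (0.00315), whereas Ier3 fell by 1.33 (log2 scale, SE 0.16, adjusted p = 0.00398). Egr1, among the most abundant of the list, rose by 1.07 ± 0.16 (edgeR adjusted p = 0.00688), and these 4 calls held without any single library. All 4 ended with pairs summed (edgeR adjusted p of 0.0779 to 0.148). Junb was at -0.69 ± 0.20, just short of the threshold (edgeR adjusted p = 0.0515), and passed as lower under 7 alternatives: without library 1 (-0.95, adjusted p = 6.28e-05), with DESeq2 (0.00744), with limma-voom (0.0415), with title stems summed (0.0343), with either title number as a covariate (0.0312 and 0.0201) and with chromosome rescaling (0.0171). Without library 1, 7 were higher and 4 lower, and the number higher was 3 without wild-type library 4, while without knock-out library 2 there were 2 lower.

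Markers of smooth muscle and of other cells that also use Kruppel-like factors differed between the genotypes, and their part in the results above was not tested. Of 8 smooth muscle markers, 5 were tested, 1 rose and 1 fell, the fall being that of Cnn1 with the limit given above. The 8 markers summed to 177 to 698 CPM in the knock-out and 136 to 206 in the wild type. Without library 1, 5 of these markers rose and 1 fell, and over the other 5 fits with a library left out none rose and 0 or 1 fell. Defining markers of mature smooth muscle were scarce, with 5, 54 and 67 exon reads of Myh11 in the knock-out against 3, 3 and 1 in the wild type, and 5 and 2 reads of Myocd over the knock-out and wild-type libraries. Of 8 mesothelium markers 7 fell and none rose, and their sum was 284 to 948 CPM in the knock-out and 3473 to 3710 in the wild type, with library 1 the highest knock-out value. Without library 1 all 8 fell, over the other 5 fits with a library left out 5 or 6 did, and with pairs summed 1 did. The 8 epithelium markers summed to 7.06 to 13.1 CPM in the knock-out and 82.8 to 98.3 in the wild type, with Cldn4 at 0 reads everywhere and Epcam at 1 and 8. Of these, 3 were tested, and Krt14 (8 reads over the knock-out, 3242 over the wild type) and Krt8 (0 and 43) passed the filter on low values through the wild type alone, so that a count of falls says little. Cdh1, E-cadherin, fell by 2.02 on the log2 scale (SE 0.26, edgeR adjusted p = 0.00523).

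Endothelium markers, where Klf2 and Klf4 are best known, summed to 2.60 to 6.93 CPM in the knock-out and 1.20 to 3.17 in the wild type. Tie1 had 0 reads in every library and Cdh5 had 2 in the knock-out and 0 in the wild type, and of the 8 markers only Kdr was tested and rose (3.17 ± 0.59, edgeR adjusted p = 0.0138, ended without wild-type library 5 or 6, up to 0.0674). Leukocyte markers summed to 6.36 to 16.8 CPM in the knock-out and 4.4 to 7.0 in the wild type, with Ptprc, Adgre1 and Itgam at 0 in every library. Of 3 tested markers 1 fell, Cd68 (-2.33 ± 0.34, edgeR adjusted p = 0.00704), with 38 exon reads over the knock-out against 205 over the wild type. With each library left out in turn, 1 leukocyte marker was still lower, and with pairs summed 0 were. Lyz2 rose (2.57 ± 0.50, edgeR adjusted p = 0.0156), a call that ended on leaving out knock-out library 2 or 3 as well as wild-type library 5 or 6 (each alone, up to 0.0728). Adipocyte markers summed to 6.06 to 15.9 and 3.48 to 4.07 CPM, with Adipoq, Plin1 and Cidec at 0, and Pparg alone rose of 2 tested (2.29 ± 0.46, edgeR adjusted p = 0.0176), a call that ended without any library other than knock-out library 1 (up to 0.0825). The Pparg call also ended with limma-voom (2.09, adjusted p = 0.0654). The 8 markers of adventitial fibroblasts summed to 4287 to 5960 CPM in the knock-out and 3733 to 3867 in the wild type, and 2 of them rose and none fell (none at an unadjusted p under 0.05 or with DESeq2, by which 4 rose). Without library 1, 5 rose and 2 fell, and over the other 5 fits 1 rose.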

How the data were processed

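The authors deposited, per the file headers, whole-number counts of exon, unique exon, exon junction and intron reads per gene and library, and RPKM values made by the authors, which served only to compare levels between genes. Per the submitters' processing notes, the build is GRCm38 (mm10). The sources used here give no aligner, counting tool or setting for strand, so reads of antisense or overlapping genes (at Klf3, Klf7, Klf9 and Klf13) cannot be told apart from those of the gene. The kit marks strand, per the labels' protocols.

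Exon and intron counts were each tested with edgeR 4.0.16 in R 4.3.3: filterByExpr with a minimum count of 10, TMM scaling, a quasi-likelihood F test on genotype alone, and Benjamini-Hochberg adjustment over all tested genes at 0.05. CPM are counts over the TMM-adjusted library size, and the SE is the fold change divided by the square root of F. Code was tested on simulated data. Depth of 19919095 to 23669252 exon reads limits precision for genes with few reads. An exact permutation test of 3 against 3 libraries cannot go below 0.1.

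Members and lists were chosen with earlier results of these data known. Lists were the other Kruppel-like and Sp genes, SRF and myocardin, MEK5 to MEF2, glucocorticoid, TGF-beta, clock, ligases and cofactors, targets, immediate early genes and markers of 7 cell types. Named were all members, the other Kruppel-like and Sp genes, up to 2 rises and 2 falls of smallest p and up to 2 most abundant genes per list, and markers near 0 reads. The choice of Smtn, the third called rise of its list, and of Krt8 followed a look at their values. Alternatives were DESeq2 1.42.0 and its size factors, total counts, no filter, 50 reads in 3 libraries, unique exon reads, limma-voom (limma 3.58.1), leaving out each library, libraries of 1 title stem or nearly identical pairs summed, title numbers as covariates, chromosome rescaling and, for introns, exon library factors. Plots used matplotlib 3.10.9 in Python 3.11.15.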

Additional observations from a re-analysis of the deposited data

How the results depend on the processing

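No paired analysis was possible because the genotypes share no replicate numbers (knock-out 1 to 3, wild type 4 to 6). The titles carry 2 further numbers, shared across genotypes and of unstated meaning, and as covariates these gave 3122 (number after p) and 4510 (last number) genes. The last number is 1 for knock-out library 1 and wild-type library 5, and 2 for both nearly identical pairs. Knock-out libraries 1 and 2 share a title stem, as do wild-type libraries 5 and 6, so summing by stem merges these. The number of genes that passed in exon reads was 1120 to 8486 with single libraries left out and 17 with nearly identical pairs summed, against 3524. Members higher in exon reads numbered 0 to 6 and members lower 1 to 3 with single libraries left out, and 0 and 0 with pairs summed. In intron reads 514 to 3559 genes passed with single libraries left out, with 0 to 3 members higher and 0 to 1 lower, and exon library factors left 0 lower. Total counts gave 40.1% of calls as higher, against 50.7%, and moved the median of all tested genes to -0.08. Klf15 ranged from -0.34 (without knock-out library 1) to 0.43 in exon reads and from -0.31 (without the same library) to 0.35 in intron reads. Klf11, at -0.02, turned to 0.21 when knock-out library 1 and 0.07 when wild-type library 6 was left out (range -0.18 to 0.21), 0.015 with title stems summed and 0.055 with chromosome rescaling. Klf16, at 0.08, turned to -0.026 with total counts, -0.0013 with the number after p as covariate and -0.10 with chromosome rescaling. Klf13 in introns turned to -0.14, -0.04 and -0.15 without knock-out library 1, knock-out library 2 and wild-type library 6 (range -0.15 to 0.20). The cause was not tested for any of these. The direction of Klf2, Klf4, Klf6, Klf7, Klf9, Klf10 and Klf13 in exon reads was the same under all 18 alternatives.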
